A study of Mus musculus with 18 samples.

Results

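The peaks described here are those found at the loci of 5 extracellular matrix genes of fibroblasts, Col1a1, Col1a2, Col3a1, Fn1 and Sparc. A peak was a member if it overlapped a fixed window around 1 of these genes on the mouse genome build mm9, whatever its height. The 9 deposited peak lists held 5 such peaks among 60701 in all. These 5 peaks lay in 2 of the 5 windows and came from 3 of the 9 lists. Of the 45 combinations of a list and a window, 41 held no peak.

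The peaks come from chromatin immunoprecipitation sequencing (ChIP-seq) of induced hepatocyte-like (iHep) cells, made from C57BL/6 mouse embryonic fibroblasts of 13.5 days post coitum by forced expression of Hnf4alpha and a Foxa protein. All 8 Foxa libraries carry the introduced Hnf4alpha, and each carries a different domain-swapped Foxa protein. Foxa1-N3 and Foxa2-N3 are Foxa1 and Foxa2 with the N-terminal domain of Foxa3, and Foxa1-C3 and Foxa2-C3 have its C-terminal domain. Foxa3-N1 and Foxa3-N2 are Foxa3 with the N-terminal domain of Foxa1 or Foxa2, and Foxa3-C1 and Foxa3-C2 have the C-terminal domain of Foxa1 or Foxa2. Foxa1-N3, Foxa2-N3, Foxa3-C1 and Foxa3-C2 were precipitated with a Foxa3 antibody, Foxa1-C3 and Foxa3-N1 with a Foxa1 antibody, and Foxa2-C3 and Foxa3-N2 with a Foxa2 antibody. The ninth library, titled 4a3_DA1, has labels that name Foxa1 and Hnf4alpha with an Hnf4alpha antibody, while its title names a Foxa3 construct. It therefore entered no test between constructs and no merged region, and is only described beside the other lists. Each construct had 1 library and no replicate. A peak list gives no expression, so the fibroblast or hepatocyte state of the cells could not be checked against marker genes, and the sequencing depth is unknown. The lists ran from 698 peaks (4a3_DA1) to 16543 peaks (Foxa3-N2).

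Fibroblasts secrete the fibrillar collagens and adhesive glycoproteins of connective tissue. Col1a1 and Col1a2 encode the chains of type I collagen, Col3a1 encodes the chain of type III collagen, Fn1 encodes fibronectin, which links cells to the matrix, and Sparc encodes a collagen-binding matrix glycoprotein. These genes are highly expressed in embryonic fibroblasts, the starting cells of iHep conversion. Foxa proteins are forkhead factors that open chromatin at liver genes, and their DNA-binding domain recognises sites with a TGTTTA core.

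The windows covered 460 kb together. On mm9 the Col1a1 window lay on chromosome 11 (94770000 to 94840000), the Col1a2 window on chromosome 6 (4430000 to 4520000), the Col3a1 window on chromosome 1 (45340000 to 45430000), the Fn1 window on chromosome 1 (71600000 to 71730000) and the Sparc window on chromosome 11 (55180000 to 55260000). The genes are shorter than their windows: by the RefSeq table of GRCm38.p6, the gene bodies are 16.8 kb (Col1a1), 35.9 kb (Col1a2), 38.2 kb (Col3a1), 67.8 kb (Fn1) and 25.9 kb (Sparc) long. Where a peak lies relative to exons, introns or the start site was not analysed here, because the gene table is on another build. In that table the nearest protein-coding neighbours on the side of higher coordinates are Sgca for Col1a1, Casd1 for Col1a2, Col5a2 for Col3a1, Mreg for Fn1 and Atox1 for Sparc.

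Promoter sequences of 3 of the 5 genes, Col1a2, Col3a1 and Sparc, matched by symbol in the RefSeq promoter table of GRCm38.p6 and are shown. Those of Col1a1 and Fn1 were not in it, so the 3 were not picked by their peaks. Like Col1a1, Col3a1 and Sparc had no peak in any list, and Col1a2 had 1 peak. Each sequence is the 250 bases before the annotated start, 5′ to 3′ on the gene's strand, and capitals mark a match to the forkhead core TGTTTA on either strand (TAAACA on the other).
Col1a2, chr6:4505368-4505617, plus strand: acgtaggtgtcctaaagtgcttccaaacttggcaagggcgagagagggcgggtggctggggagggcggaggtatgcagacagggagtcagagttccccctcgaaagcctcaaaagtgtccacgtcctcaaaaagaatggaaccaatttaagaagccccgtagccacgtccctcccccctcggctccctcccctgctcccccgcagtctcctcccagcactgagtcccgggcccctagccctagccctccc
Col3a1, chr1:45311288-45311537, plus strand: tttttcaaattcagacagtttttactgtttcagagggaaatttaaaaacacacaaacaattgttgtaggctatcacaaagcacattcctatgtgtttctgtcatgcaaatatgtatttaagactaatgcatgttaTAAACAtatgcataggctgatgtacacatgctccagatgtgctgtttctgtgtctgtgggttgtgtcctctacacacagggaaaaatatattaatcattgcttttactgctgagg
Sparc, chr11:55420081-55420330, minus strand: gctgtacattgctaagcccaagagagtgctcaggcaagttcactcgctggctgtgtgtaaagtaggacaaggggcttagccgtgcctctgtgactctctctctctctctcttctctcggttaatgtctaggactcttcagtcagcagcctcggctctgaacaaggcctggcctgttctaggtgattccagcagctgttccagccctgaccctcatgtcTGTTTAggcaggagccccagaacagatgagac
The Col3a1 stretch held 1 match, on the opposite strand, beginning 115 bases before the start. The Sparc stretch held 1 match, on the gene's strand, beginning 32 bases before the start, and the Col1a2 stretch held none. Among all 32851 promoter entries of the table, 12.0% held this core. The core was chosen after the promoters were seen, so this share is background and no test of the 3 stretches. Neither the longer form TGTTTAC, which contains the core and occurred in 3.17% of all entries, nor TGTTNAC, which includes TGTTTAC and occurred in 8.69%, was found in the 3 stretches on either strand. The G+C content was 62% for Col1a2, 35.2% for Col3a1 and 54% for Sparc.

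Fn1 was the locus with the most peaks. A site on chromosome 1 (71697176 to 71697765) carried a peak in Foxa2-C3, Foxa3-N1 and Foxa3-N2 and in none of the other 6 lists. The Foxa2-C3 peak (71697178 to 71697685) was 508 bp wide with a score of 27.5 and ranked 5262 of 13715. The Foxa3-N1 peak (71697176 to 71697659) was 484 bp wide with a score of 32.2 and ranked 2227 of 7625. The Foxa3-N2 peak (71697224 to 71697765) was 542 bp wide with a score of 28.8 and ranked 5340 of 16543. The score is the authors' own value per peak, of a kind not given in the sources used here. It was used for ranks within a list and, in an alternative run, for a cut common to all Foxa lists. In each list the site was thus of upper-middle rank. It lay within the top 38.4% of the Foxa2-C3 list, the top 29.2% of the Foxa3-N1 list and the top 32.3% of the Foxa3-N2 list.

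The Fn1 peaks of the 3 lists coincided closely. Their midpoints lay within 77 bp of each other, their starts within 48 bp and their ends within 106 bp, and 436 bp were common to all 3 (71697224 to 71697659). Each was wider than the median of its list, which was 462 bp in Foxa2-C3, 413 bp in Foxa3-N1 and 417 bp in Foxa3-N2. They were not among the widest peaks of these lists: 63.2% of the Foxa2-C3 peaks, 71.8% of the Foxa3-N1 peaks and 82.4% of the Foxa3-N2 peaks were narrower. The site lay 32.4 kb from the centre of the window towards higher coordinates.

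**Figure D1:**
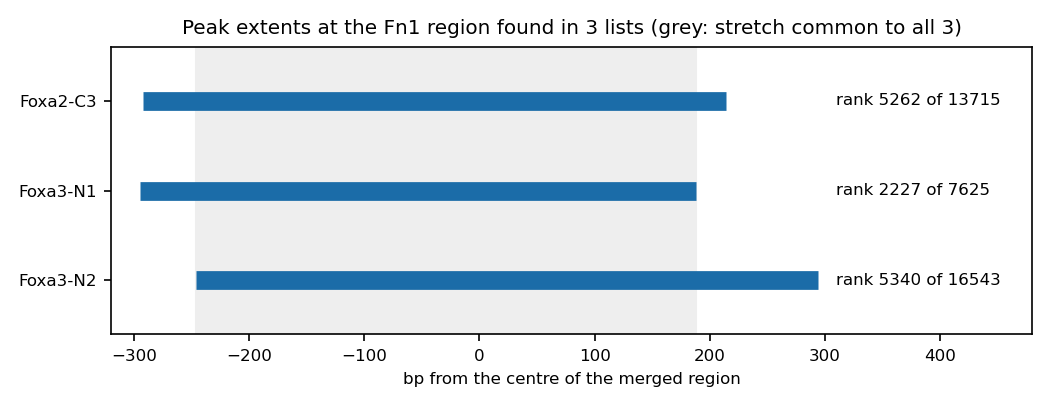
Extent of the peaks at the Fn1 site found in 3 lists, in bp from the centre of the merged region (x axis), 1 bar per list, with the rank of the peak in its list written beside it. The grey band is the 436 bp common to all 3 bars, whose starts lie within 48 bp and whose ends lie within 106 bp.

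The constructs with the Fn1 peak share the Foxa3 C-terminal domain, and 2 of them have the Foxa3 DNA-binding domain while Foxa2-C3 has that of Foxa2. The remaining construct with this terminal layout, Foxa1-C3, had no peak there, although it has the same N-terminal domain, C-terminal domain and antibody as Foxa3-N1 and differs from it in the DNA-binding domain. The nearest Foxa1-C3 peak outside the window was 40.3 kb beyond its upper edge. Foxa2-C3 and Foxa3-N2, which also differ in the DNA-binding domain alone, both had the peak. Each of these statements sets 1 library against 1.

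Sites found in 3 or more lists were common in these data. After overlapping peaks of the 8 Foxa lists were merged into 24999 regions, 31.6% were found in at least 3 lists. Of all 24999 regions, 21.6% were found in at least 4 lists and 2484 in exactly 3. Of the 2484 regions found in exactly 3 lists, 43.7% had all 3 lists on the side of the Foxa3 C-terminal domain, and 23.8% (592 regions) were found in Foxa2-C3, Foxa3-N1 and Foxa3-N2, as at Fn1. The standing of the Fn1 site within these 592 regions differed by list: 7.43% of them (44) had a better rank in Foxa3-N1, 37.2% (220) in Foxa2-C3 and 45.6% (270) in Foxa3-N2. Their median rank was 5204 in Foxa3-N1, 6443 in Foxa2-C3 and 5799 in Foxa3-N2, so the Fn1 site lay above the median of the set in all 3 lists.

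A second Fn1 peak was found in Foxa3-N2 alone, at 71727058 to 71727396. It was 339 bp wide, had a score of 17.2 and ranked 9642 of 16543, so it was both narrower and weaker than the median of its list (417 bp and 19.8). It lay 2.60 kb inside the upper edge of the window, on the side of Mreg, and would be lost from a slightly narrower window. Regions found in 1 list made up 47.5% of all merged regions.

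Col1a2 had 1 peak, in Foxa2-C3, on chromosome 6 (4499717 to 4500030). It had a score of 13.7 against a list median of 21.8 and ranked 10847 of 13715. Its width of 314 bp was the narrowest that occurs in the Foxa2-C3 list, shared by 463 of its peaks (3.38%). It lay 24.9 kb from the window's centre and 20.0 kb inside the upper edge. In the other 7 Foxa lists no peak was found in the Col1a2 window, Foxa3-N2 with its longer list included.

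Col1a1, Col3a1 and Sparc had no peak in any of the 9 lists. Their surroundings differed. Within 1 Mb of the window centre there were 45 regions of the 8 Foxa lists around Col1a1 (22.5 per Mb, against 12.4 per Mb over chromosome 11), so that the empty Col1a1 window lay in a peak-rich neighbourhood. Around Sparc there were 10 such regions (5 per Mb) and around Col3a1 9 (4.5 per Mb, against 9.51 per Mb over chromosome 1), fewer than the chromosome average in both cases. The corresponding numbers were 29 around Fn1 (14.5 per Mb) and 37 around Col1a2 (18.5 per Mb, against 11.4 per Mb over chromosome 6). Col3a1 was the most isolated locus: the nearest peak outside its window was 260.5 kb away in Foxa3-N2, and the distance to the nearest outside peak had a median of 1283 kb over the 8 Foxa lists. For Fn1 this median was 26.5 kb, for Col1a1 79.1 kb, for Sparc 156.1 kb and for Col1a2 412.6 kb.

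**Figure D2:**
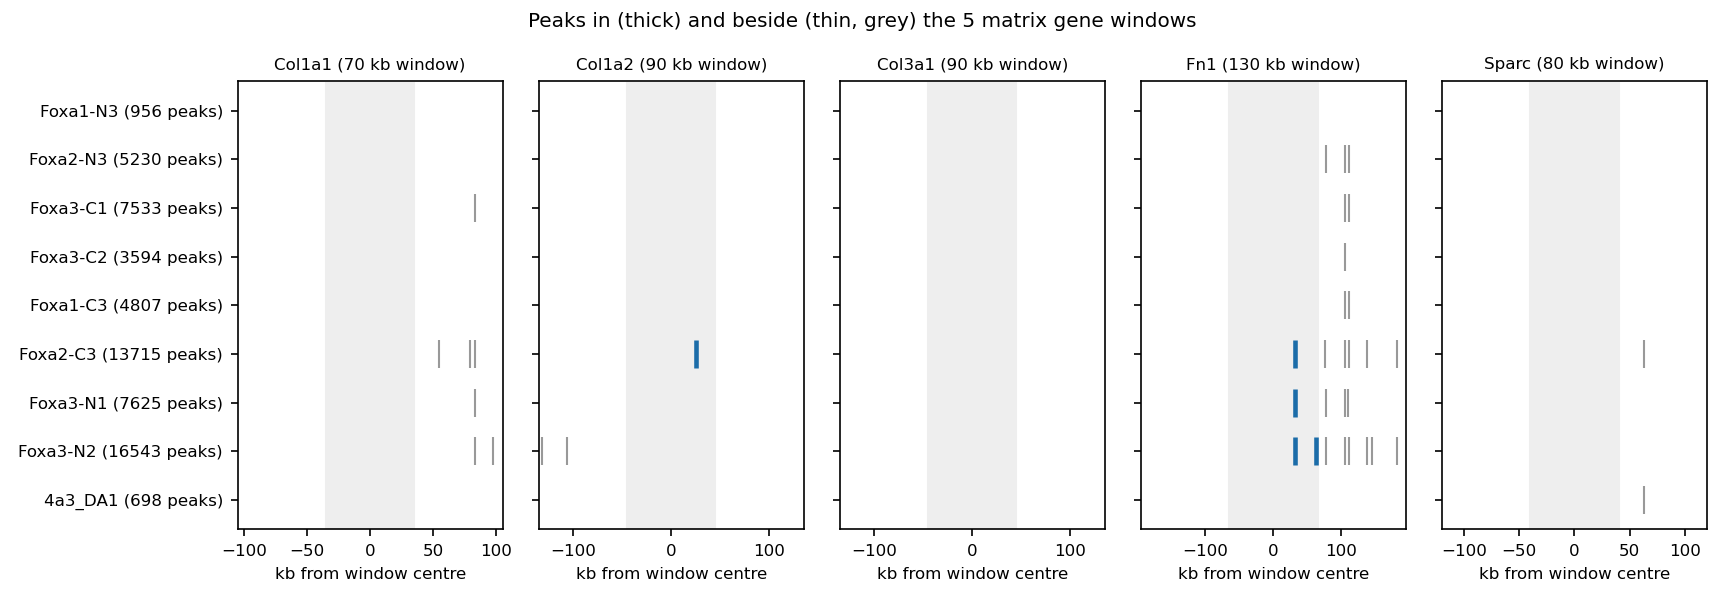
Peaks of the 9 lists (rows, with the number of peaks in each list) by distance in kb from the centre of each window (x axis, 1 panel per gene); the window is grey, peaks inside it are thick and blue, and peaks in the flanks of equal length are thin and grey. All 5 peaks inside a window belong to Foxa2-C3, Foxa3-N1 and Foxa3-N2, and 7 of the 14 flanking regions lie above Fn1.

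The flanks of equal length on both sides of the windows, 920 kb together, held 14 regions of the 8 Foxa lists, 15.2 per Mb, against 3 regions or 6.52 per Mb inside the windows and 9.76 per Mb over the genome span covered by the lists. The difference between windows and flanks came mostly from Fn1 and Col1a1, with 7 and 4 regions above the upper edge and none below the lower edge. The flank above Fn1 held the sites shared most widely: a region at 71770210 to 71770893 was found in 7 of the 8 lists, all except Foxa1-N3, with its best standing in Foxa3-N2 (rank 1024 of 16543). A neighbouring region at 71775241 to 71775906 was found in 6 lists, with its best standing in Foxa2-C3 (rank 562 of 13715). Foxa2-N3, Foxa3-C1, Foxa3-C2 and Foxa1-C3, which had no peak in the Fn1 window, thus had peaks in the flank above it. Above Col1a1, a region at 94887375 to 94887956, 47.4 kb from the window, was found in Foxa2-C3, Foxa3-C1, Foxa3-N1 and Foxa3-N2 and ranked 538 of 16543 in Foxa3-N2. Of the 14 flanking regions 3 (21.4%) were found in at least 4 lists, beside 21.6% of all merged regions. None of the 3 regions inside the windows was.

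Several peaks lay just outside the windows. Nearest to an edge was a Foxa2-C3 peak 10.9 kb above the Fn1 window (71740859 to 71741324; rank 9215 of 13715), followed by a region 12.7 kb above it (71742660 to 71743161) found in Foxa2-N3, Foxa3-N1 and Foxa3-N2. A Foxa2-C3 peak lay 19.6 kb above the Col1a1 window (94859551 to 94860098; rank 5077), and another 22.6 kb above the Sparc window (55282644 to 55283116; rank 4191). The last was the place where the 4a3_DA1 library came closest to a matrix gene. Its peak at 55283297 to 55283410, 114 bp wide with a score of 11.0 and rank 190 of 698, began 181 bp after the end of the Foxa2-C3 peak and did not overlap it. In the other 4 windows the nearest 4a3_DA1 peak was at least 697.0 kb away.

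The number of empty windows was set beside the same measure over the genome. Tiles of 92 kb, the mean length of the windows, held a peak in 3.17% of cases for Foxa1-N3, 13.6% for Foxa2-N3, 18.3% for Foxa3-C1, 10.1% for Foxa3-C2, 13.2% for Foxa1-C3, 26.5% for Foxa2-C3, 18.7% for Foxa3-N1, 29.8% for Foxa3-N2 and 1.44% for 4a3_DA1. Of the 5 matrix windows, Foxa2-C3 had a peak in 2 (40%), Foxa3-N1 and Foxa3-N2 in 1 each (20%) and the other lists in 0. With only 5 windows, 1 window more or less moves a list by 20 percentage points. For the 8 Foxa lists together, 2 of the 5 windows held a peak (40%), and 39.6% of all tiles did. For tiles as long as each window this background was 34.1% for Col1a1, 39.1% for Col1a2 and Col3a1, 46.8% for Fn1 and 36.7% for Sparc. For the 8 lists together the share of windows with a peak was thus close to that of the tiles, but 5 windows are too few to show that the rates are alike. By density the windows held fewer regions, 6.52 per Mb against 9.76 per Mb over the genome span. The tiles were not matched for gene content or expression.

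**Figure D3:**
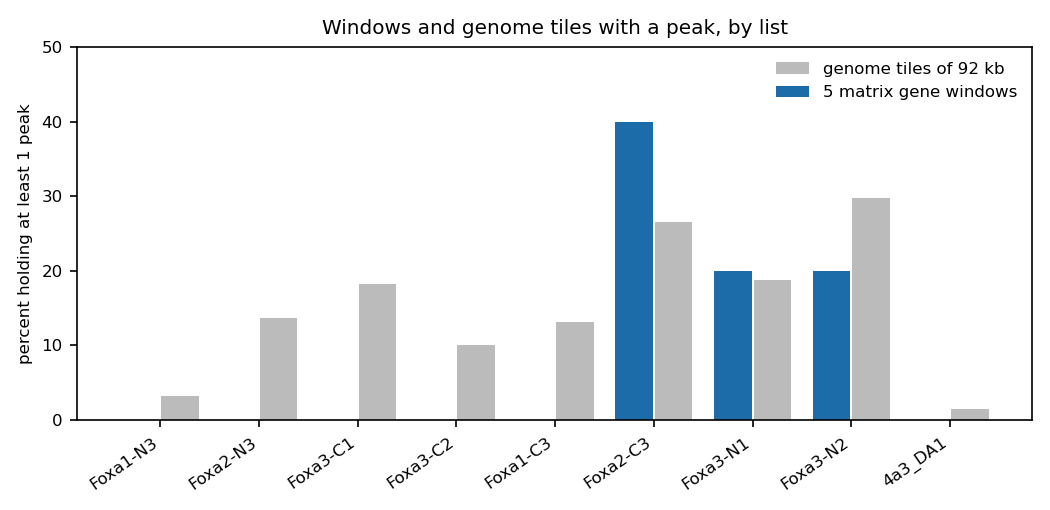
Percent of the 5 matrix gene windows (coloured bars, blue) and of genome tiles of 92 kb (grey bars) that hold at least 1 peak (y axis) in each of the 9 lists (x axis). Coloured bars appear for Foxa2-C3 (40%), Foxa3-N1 and Foxa3-N2 (20% each), and the grey bars range from 1.44% to 29.8%.

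By length the windows made up 0.0180% of the genome span between the outermost peaks of each chromosome (2562 Mb). The 8 Foxa lists with 60003 peaks had 5 peaks in them, where the average density of these lists would give 10.8. The 2 peaks of Foxa2-C3 were 0.0146% of its list (95% Wilson interval 0.00400 to 0.0532%), the 1 peak of Foxa3-N1 was 0.0131% (0.00232 to 0.0743%) and the 2 peaks of Foxa3-N2 were 0.0121% (0.00332 to 0.0441%). All 3 intervals include 0.0180%. In the lists with 0 peaks in the windows, a count of 0 allows a share of up to 0.314% (3 peaks of the list's total) in Foxa1-N3, 0.0574% in Foxa2-N3, 0.0398% in Foxa3-C1, 0.0835% in Foxa3-C2, 0.0624% in Foxa1-C3 and 0.430% in 4a3_DA1. Each of these limits lies above 0.0146%, the highest share observed, so a count of 0 does not exclude a share like that of Foxa2-C3 in these lists. The upper ends of the Wilson intervals of these lists, another bound on the same counts, are higher, for example 0.400% in Foxa1-N3 and 0.0510% in Foxa3-C1. Intervals and limits cover counting error only.

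**Figure D4:**
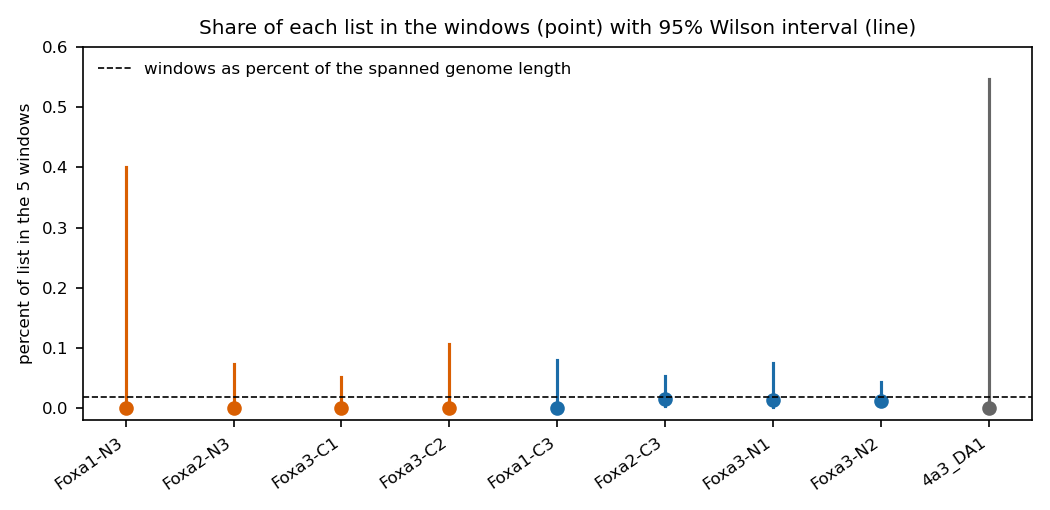
Percent of each list that lies in the 5 windows (points) with its 95% Wilson interval (vertical lines), for constructs with the Foxa3 N-terminal domain (orange), with the Foxa3 C-terminal domain (blue) and for 4a3_DA1 (grey). The dashed line at 0.0180% is the share of the spanned genome length in the windows, and it crosses the interval of every list.

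The lists with a peak at a matrix gene were also the 3 longest. Foxa3-N2, Foxa2-C3 and Foxa3-N1 had 16543, 13715 and 7625 peaks, and Foxa3-C1, with 7533 peaks, came next with none in the windows. When the longer lists were cut to their 7533 strongest peaks, the length of Foxa3-C1, the Fn1 site was still present in Foxa2-C3, Foxa3-N1 and Foxa3-N2, and the other 2 peaks were lost. The lists of Foxa1-N3, Foxa2-N3, Foxa3-C2 and Foxa1-C3 are shorter than this and were not changed by it. With no list longer than its 4807 strongest peaks, as many as Foxa1-C3 has, only the Foxa3-N1 peak at Fn1 was left, and with the 956 strongest none was. List length went with the result, and its part in it was not tested.

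The comparison of terminal layouts asked whether the share of a list at matrix genes depended on which end of the protein came from Foxa3. Constructs with the Foxa3 N-terminal domain had 0 peaks in the windows in all 4 lists, and constructs with the Foxa3 C-terminal domain had a mean share of 0.00995% ± 0.00671 (SD, n = 4 constructs). The groups overlapped, since Foxa1-C3 also had 0. The difference of -0.00995 percentage points did not pass 0.05 (exact two-sided permutation p = 0.143 over 70 splits, where 0.0286 is the smallest possible; adjusted p = 0.429 over the 3 factors). Without Foxa1-C3 it was -0.0133 percentage points with an unadjusted exact permutation p of 0.0286, the smallest that 4 against 3 lists allow. Foxa1-C3 was the only list of its side with 0, so this p followed from which list was left out. Without the Fn1 window the difference was -0.00182 (exact permutation p = 1). In the 4 pairs of constructs alike in DNA-binding domain and partner protein, the share was lower with the Foxa3 N-terminal domain in 3 and equal at 0 in 1, Foxa1-N3 with Foxa1-C3 (exact sign-flip permutation p = 0.25). The antibody changes with the layout, so the 2 cannot be told apart.

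By DNA-binding domain, constructs with that of Foxa3 had a mean share of 0.00630% ± 0.00729 and those with that of Foxa1 or Foxa2 0.00365% ± 0.00729 (SD over 4 constructs a side; two-sided exact permutation p = 1, also after adjustment). The sign of this difference turned when the windows were widened by 25 kb on both sides (-0.00280 percentage points) and when Fn1 was left out (-0.00182 percentage points). By partner protein, constructs made of Foxa2 and Foxa3 had 0.00667% ± 0.00777 and those made of Foxa1 and Foxa3 0.00328% ± 0.00656 (SD over 4 constructs a side; two-sided exact permutation p = 0.714 and 1 after adjustment). Neither difference exceeded the spread between constructs. Nothing in the labels gives separate cultures of 1 construct, so these p-values rest on how single libraries vary from construct to construct.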

How the data were processed

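The authors deposited 1 peak list per ChIP library, without a header. Per the submitters' processing notes, BWA 0.6.2, MACS2 2.1.0 and bedtools 2.16.2 were used with build mm9. Settings of the caller and the role of the 9 inputs were not given in the sources used here. The deposited score of each peak, at least 5.11, was used for ranks and thresholds within lists. In an alternative run a cut at the pooled median of 19.2 was applied to all Foxa lists alike, although their median scores differ.

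Starts were converted to count from 1. A peak belonged to a window with an overlap of at least 1 bp, and all such peaks are described; regions were overlapping peaks of the 8 Foxa lists, merged. Tiles of 92 kb ran between the outermost peaks of each chromosome. The share of a list in the windows was compared by exact permutation over constructs with Benjamini-Hochberg adjustment. A planned list of further fibroblast genes was not run, since the gene table is on GRCm38. The genes, windows and tests were chosen with earlier results of these data known; the core TGTTTA was added after the promoters were seen. Window counts equalled those of bedtools 2.31.1 in 135 of 135 cases, and the permutation test was tested on simulated data. The software was numpy 2.4.6, scipy 1.17.1, pandas 2.3.3 and matplotlib 3.10.9 under Python 3.11.15.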

Additional observations from a re-analysis of the deposited data

Results flagged for a closer look

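Foxa1-C3 had 0 peaks at the matrix genes, while the other 3 constructs that end in the Foxa3 C-terminal domain had 1 or 2. The gap of its share to the nearest of theirs was 0.82905 of the whole range of the 4, which is barely past Dixon's 95% critical value. That value is meant for normally distributed values, whereas these shares come from counts of 0 to 2 peaks. It therefore cannot say how often chance gives such a gap. The count of 0 in Foxa1-C3 allows a share of up to 0.0624%, above the 0.0146% of Foxa2-C3. The Foxa1-C3 list of 4807 peaks is the shortest of the 4.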

How the results depend on the processing

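The number of Foxa peaks in the windows was 5. It was 3 with scores above 19.2, the median of the pooled lists, 0 with the 956 strongest peaks of each list, and 11 with windows widened by 25 kb, and leaving out each construct in turn gave 3 to 5, with 3 without Foxa2-C3 or without Foxa3-N2. The number of merged regions, 3, became 1, 0 and 7 under the first 3 of these, and 2 to 3 without single constructs. The number of regions found in at least 4 lists was 0 under all 13 alternatives run for it. Only the widened windows and the merging of peaks within 1 kb could have raised it, since the others only take peaks away. By terminal layout the difference was negative under all 17 alternatives that gave a value, and leaving out each construct gave -0.0133 to -0.00840. All lists of the Foxa3 N-terminal side had 0 peaks in the windows, so only the widened windows could have turned this sign. The count of 17 is therefore no measure of stability. The p was under 0.05 only without Foxa1-C3 (-0.0133, exact permutation p = 0.0286). That p followed from leaving out the only list of the Foxa3 C-terminal side with 0 peaks. By DNA-binding domain the sign turned with the widened windows (-0.00280) and without the Fn1 window (-0.00182), and by partner protein it was positive in all 17. With the 956 strongest peaks no share could be compared, since all were 0. The labels give no replicate numbers, so no replicate block was fitted. The sign-flip test over pairs of constructs, chosen after seeing the data, changed no call by layout (exact p = 0.25), DNA-binding domain (exact p = 1) or partner (exact p = 1). Sequencing depth is unknown, and what a count of 0 allows is set by the length of each list.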
